A study of Mus musculus with 25 samples.

Results

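The genes of MHC class II antigen presentation were examined in gonadal white adipose tissue of mice on a low-fat or a high-fat diet. They were taken from a list of 10 genes: H2-Ab1, H2-Aa and H2-Eb1, the chains of the class II molecule, Cd74, the invariant chain, Ciita, the class II transactivator, H2-DMa, H2-DMb1 and H2-DMb2, the peptide exchange factor H2-DM, and H2-Oa and H2-Ob, its partner H2-O. A gene was measured where a transcript cluster of the array, the probes summarised together, carried its symbol and no other, and the brightest such cluster stood for it. That held for 9 of the 10 genes, among 22180 genes in all; the cluster of Cd74 also carries a microRNA symbol, so Cd74 has no value here.

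All 25 mice were male heterozygous apoE3L.CETP mice, which carry the human ApoE3Leiden and CETP transgenes, the controls included, and so have a lipoprotein profile closer to the human one. From 12 weeks of age they were given either the low-fat control diet, LFD, or HFD, rich in fat and supplemented with cholesterol, and gonadal fat was collected after 4, 8 or 12 weeks. The arrays, labelled as biological replicates, number 4 LFD and 3 HFD arrays at 4 weeks, 4 and 4 at 8 weeks, 4 and 4 at 12 weeks, and 2 of mice on chow at 12 weeks of age, the baseline. The labels give the age of the 12-week groups as 34 weeks, which 12 weeks of diet from that start would not give, so the time on diet is used.

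Class II molecules are made of an alpha and a beta chain and show peptides from the endosomal pathway to CD4 T cells. The invariant chain guides new molecules to the endosome, proteases digest it, and H2-DM then helps the groove to exchange its last fragment for an antigen peptide, a step that H2-O restrains. Macrophages, dendritic cells and B cells can carry class II molecules at rest, and other cells, adipocytes among them, can be brought to do so by interferon gamma. CIITA does not bind DNA itself but joins factors already sitting on the promoters, the RFX complex and CREB on the X boxes and NF-Y on the Y box.

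Promoter windows of 6 of the measured genes are shown because these boxes are where CIITA and its partner factors act. The letters searched for were not all found in each window. RefSeq promoters (GRCm38.p6, 250 bases before to 50 after a start) were given for 7 of the 9 measured genes, with no entry for H2-Ab1 or Ciita. In the windows below, written 5′ to 3′ on the strand of the gene, capitals mark GATTGG, the core of the Y box in this orientation, CTNGNAAC, an X box core, and TGACGTCA, the palindromic CREB site.
H2-Aa (chr17:34287855-34287927, minus strand): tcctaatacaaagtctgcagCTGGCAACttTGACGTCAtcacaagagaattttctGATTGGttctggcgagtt
H2-Eb1 (chr17:34305752-34305824, plus strand): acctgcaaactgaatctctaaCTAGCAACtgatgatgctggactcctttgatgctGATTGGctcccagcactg
H2-DMb1 (chr17:34153074-34153146, plus strand): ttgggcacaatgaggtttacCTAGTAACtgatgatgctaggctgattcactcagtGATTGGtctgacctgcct
H2-DMb2 (chr17:34145103-34145175, plus strand): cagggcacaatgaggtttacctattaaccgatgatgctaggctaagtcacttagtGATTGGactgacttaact
H2-Ob (chr17:34238792-34238864, plus strand): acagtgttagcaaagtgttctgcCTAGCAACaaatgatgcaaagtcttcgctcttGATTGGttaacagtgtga
H2-Oa (chr17:34092280-34092352, plus strand): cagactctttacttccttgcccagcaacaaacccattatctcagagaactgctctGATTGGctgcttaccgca

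Both strands were searched. GATTGG was found in 7 of the 8 promoters of these 7 genes, H2-DMa having 2, against 16.1% of 32851 promoters of the same length. In the 6 windows shown it begins between 44 and 91 bases before the start. CTNGNAAC was found in 4 of the 8 against 13.2%, and TGACGTCA in 1, that of H2-Aa, against 1.79%. CTNGNAAC followed by GATTGG within 50 bases on the same strand stood in the promoters of H2-Aa, H2-Eb1, H2-DMb1 and H2-Ob, with 32 to 35 bases between the 2 starts, and in 0.161% of all promoters. The letters CTNGNAAC were chosen after these promoters had been read, so that share describes them and supports nothing. A match is no proof of a bound site, and a window without one says only that these letters are not in it.

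Libraries that stand apart concern the whole series. The mean of 16 hepatocyte genes on the log2 scale lay between 9.74 and 11.17 on 11 arrays and between 5.95 and 8.28 on the other 14, with 3 HFD and 2 LFD arrays in the high set at 8 weeks and 3 and 3 at 12 weeks. Transcripts of epididymis, the tissue beside gonadal fat, had a mean of 11.94 on chow array 1, 10.30 on HFD 4-week array 1 and 5.74 on LFD 4-week array 1, and 4.18 or less elsewhere. The adipocyte list averaged between 11.09, on chow array 1, and 12.32. Array medians lay between 5.04 and 5.36.

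The chains of the class II molecule were higher on HFD, and the difference was called at 12 weeks for all 3 that were measured. At 12 weeks H2-Ab1, the beta chain of I-A, was 2.07-fold higher on HFD than on LFD. H2-Eb1, the beta chain of I-E, was 1.95-fold higher, and H2-Aa, the alpha chain of I-A, 1.82-fold. From 4 to 12 weeks the 3 chains differed by 0.13 to 0.365 on HFD and by −0.45 to −0.63 on LFD (log2 scale), none called. Ciita was 1.82-fold higher on HFD than on LFD at 8 weeks and 1.5-fold at 12 weeks, and H2-DMa 1.78-fold at 12 weeks. Below, a gene that rose was higher on HFD than on LFD at the same time. Both H2-O genes and H2-DMb2 were called at no time. Because whole tissue was measured, more cells carrying a transcript and more transcript per cell cannot be told apart.

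**Figure D1:**
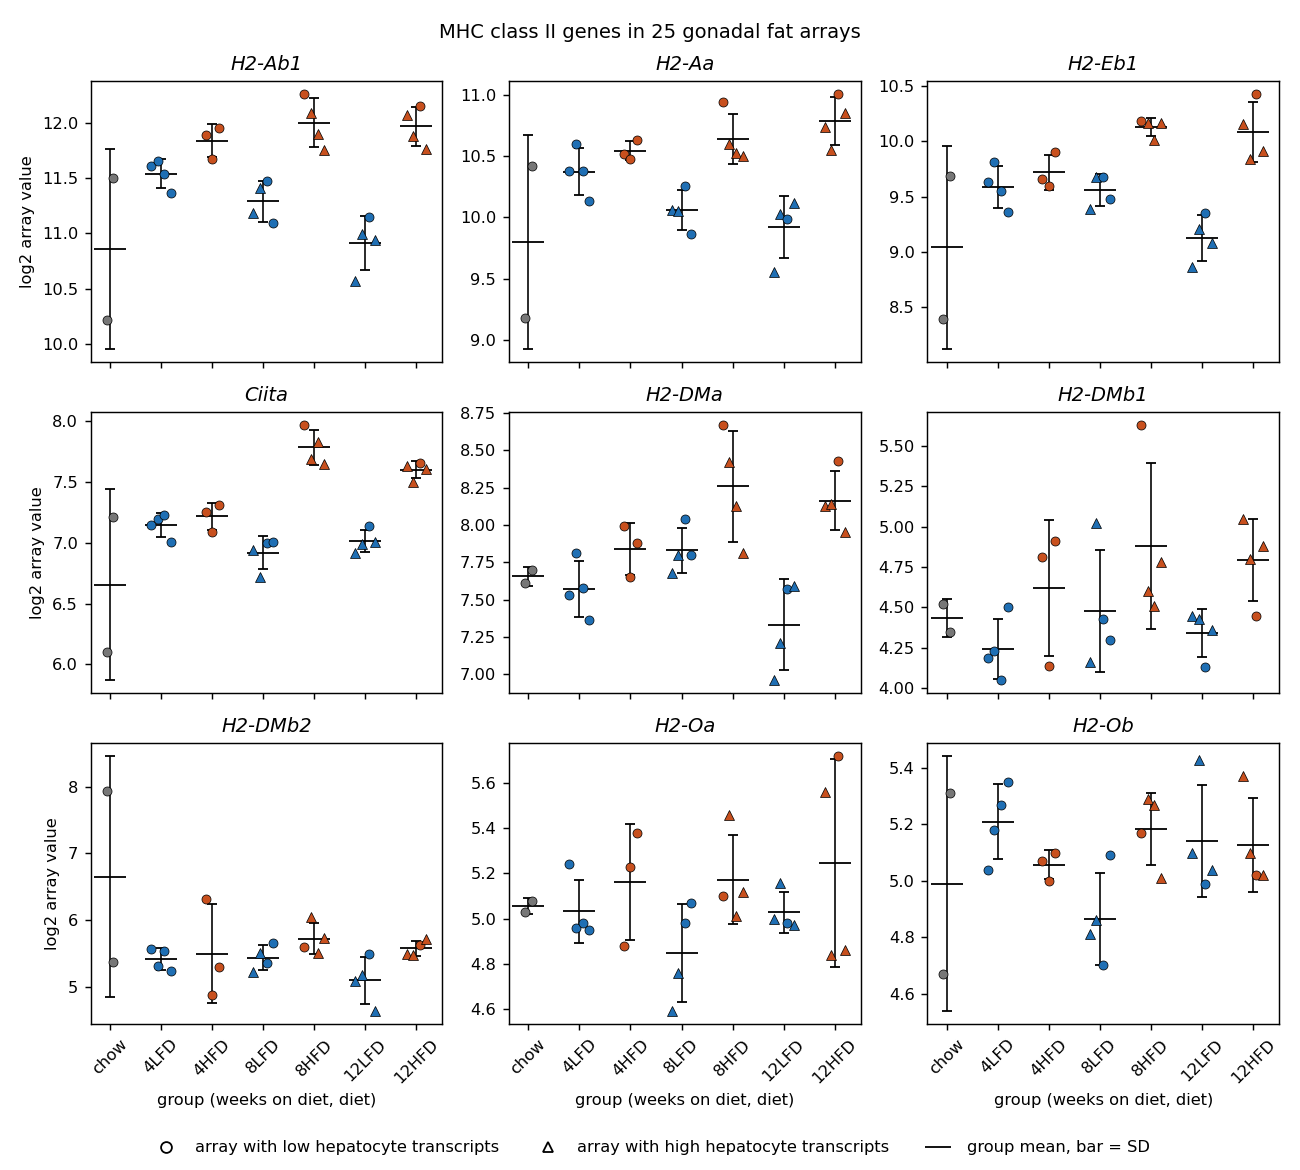
Log2 array values of the 9 measured class II genes (y axes) in the 7 groups (x axis); a point is 1 mouse, the bar is the group mean with its SD, and triangles are the 11 arrays with high hepatocyte transcripts. For H2-Ab1, H2-Eb1, H2-Aa, Ciita and H2-DMa all HFD arrays of 12 weeks lie above all LFD arrays of that time, while the H2-Oa and H2-Ob groups overlap.

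H2-Ab1 was measured at 12.07, 11.88, 12.15 and 11.76 on the 4 HFD arrays of 12 weeks. On the 4 LFD arrays of that time it was 10.57, 10.99, 11.15 and 10.94. Every HFD array lay above every LFD array. The difference was 1.05 ± 0.19 on the log2 scale (moderated standard error, 4 against 4 arrays; limma, Benjamini-Hochberg adjusted p = 0.00226). At 8 weeks the HFD arrays were 12.26, 12.09, 11.90 and 11.75 and the LFD arrays 11.18, 11.41, 11.47 and 11.09, again without overlap. That difference of 0.71 ± 0.19 was called at an adjusted p of 0.0497 by limma, just inside the threshold, and it was not called when any 1 of the 8 arrays was left out (adjusted p between 0.0512 and 0.186). At 4 weeks the HFD arrays were 11.89, 11.67 and 11.95 and the LFD arrays 11.61, 11.65, 11.54 and 11.36. These did not overlap either, but the difference of 0.30 ± 0.21 was not called (limma, adjusted p = 0.708).

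H2-Eb1 was 10.16, 9.84, 10.43 and 9.91 on HFD at 12 weeks and 8.86, 9.21, 9.35 and 9.08 on LFD, a difference of 0.96 ± 0.19 (limma, adjusted p = 0.00422). H2-Aa was 10.74, 10.55, 11.01 and 10.85 on HFD and 9.55, 10.03, 9.99 and 10.12 on LFD, a difference of 0.865 ± 0.19 (limma, adjusted p = 0.00872). The groups did not overlap for either gene. At 8 weeks both genes were again higher on all 4 HFD arrays than on any LFD array. The 8-week differences, 0.575 ± 0.19 for H2-Eb1 and 0.585 ± 0.19 for H2-Aa, were not called (limma, adjusted p = 0.126 and 0.114). HFD array 1 of 8 weeks had the highest H2-Ab1 value of the series and HFD array 3 of 12 weeks the highest H2-Aa and H2-Eb1 values. Neither of them is among the arrays with high hepatocyte transcripts.

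Ranked by the mean of these 3 chains, the 10 highest of the 25 arrays were HFD arrays, led by array 3 of 12 weeks at 11.20. The remaining HFD array, array 2 of 4 weeks at 10.58, stood in place 12. The lowest were chow array 1 at 9.26 and LFD array 1 of 12 weeks at 9.66.

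Ciita, the coactivator on which the class II genes depend, differed most between the diets at 8 weeks. It was 7.97, 7.69, 7.83 and 7.65 on the HFD arrays and 6.94, 6.72, 7.00 and 7.01 on the LFD arrays, with a gap between the groups. The difference of 0.87 ± 0.15 was called (limma, adjusted p = 0.00396) and was also called in each of the 8 fits that left out an array. At 12 weeks HFD arrays held 7.63, 7.5, 7.66 and 7.61 and LFD arrays 6.92, 6.99, 7.14 and 7.01, a difference of 0.585 ± 0.15 (limma, adjusted p = 0.0256). That call was lost in 6 of the 8 fits that left out an array (HFD array 1, 3 or 4, or LFD array 1, 2 or 4), with an adjusted p of up to 0.086. At 4 weeks Ciita was 7.25, 7.09 and 7.31 on HFD and 7.15, 7.20, 7.23 and 7.01 on LFD, which overlapped and differed by 0.07 ± 0.16.

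H2-DMa, the alpha chain of H2-DM, was 8.13, 8.14, 8.43 and 7.95 on HFD at 12 weeks and 6.96, 7.21, 7.57 and 7.59 on LFD. The groups did not overlap, and the difference of 0.83 ± 0.17 was called (limma, adjusted p = 0.00446). At 8 weeks the HFD arrays ran from 7.81 to 8.67 and the LFD arrays from 7.68 to 8.04, and the difference of 0.43 ± 0.17 was not called (limma, adjusted p = 0.212). H2-DMb1 and H2-DMb2, the beta chains, are near-identical neighbours, so their signals may be shared between the 2 clusters and are uncertain. H2-DMb1 differed by 0.38, 0.40 and 0.45 at 4, 8 and 12 weeks, each with a standard error of 0.22 or 0.24 and none called. The same sign at each time gave a call for the mean of the 3 times, 0.41 ± 0.13 (limma, adjusted p = 0.0458), which was lost in 17 of the 23 fits that left out an array. H2-DMb1 was dim, with group means from 4.24 to 4.88, under the median of all values, 5.13. H2-DMb2 differed by 0.09 ± 0.38, 0.285 ± 0.35 and 0.48 ± 0.35 and was not called.

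H2-Oa and H2-Ob, the chains of the inhibitor of H2-DM, lay near the array median in every group, with group means from 4.85 to 5.245. H2-Oa was 5.56, 4.84, 5.72 and 4.86 on HFD at 12 weeks and 5.0, 5.16, 4.98 and 4.97 on LFD, so 2 of the HFD arrays were above all LFD arrays and 2 below them. H2-Ob differed by −0.15 ± 0.14, 0.32 ± 0.13 and −0.01 ± 0.13 at 4, 8 and 12 weeks. None of these was called, and the 95% interval of the 12-week difference of H2-Ob ran from −0.29 to 0.26.

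**Figure D2:**
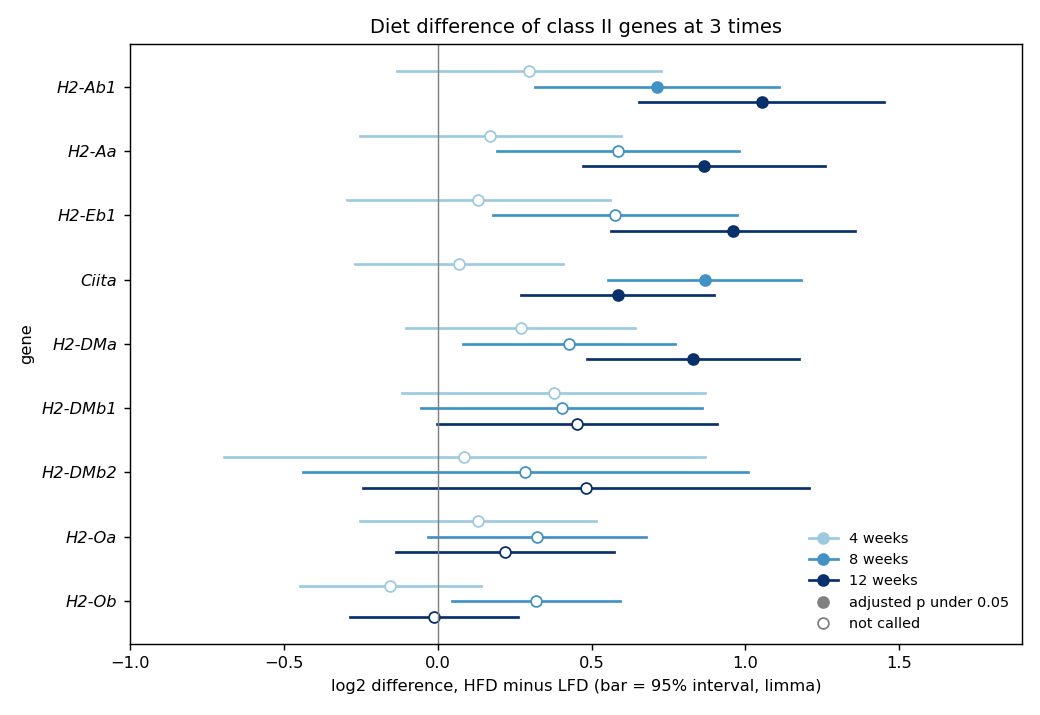
Log2 difference HFD minus LFD (x axis) of the 9 measured class II genes (y axis) at 4, 8 and 12 weeks, with 95% intervals from limma; filled points have an adjusted p under 0.05. No point is filled at 4 weeks, H2-Ab1 and Ciita are filled at 8 weeks, and the 3 chains, Ciita and H2-DMa at 12 weeks.

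In counts, 0 of the 9 genes were called at 4 weeks, where 0.189% of all genes were called higher on HFD. At an unadjusted p under 0.05 the count at 4 weeks was also 0 of 9, beside 9.33% of all genes, and a 2-way analysis of variance as the study planned it, with its fold limit of 1.5, called 0. At 8 weeks 2 of 9 were called, both higher, beside 1.17% of all genes called higher and 1.24% lower. At 12 weeks 5 of 9 were called, all higher, beside 3.13% higher and 1.33% lower. For the mean of the 3 times it was 6 of 9, all higher, beside 6.03%. At an unadjusted p under 0.05 the count was 6 of 9 at 8 weeks and 5 of 9 at 12 weeks, beside 13.7% and 16.1% of all genes. These shares, and 9.33% at 4 weeks, also belong beside the diet counts of the other lists at that threshold below. HFD arrays lay wholly above LFD arrays for 1 gene at 4 weeks, 4 at 8 weeks and 5 at 12 weeks, as they did for 4.68%, 5.01% and 7.52% of all genes. The median difference of the 9 genes was 0.13, 0.43 and 0.585 at 4, 8 and 12 weeks, and that of all genes −0.0017, −0.0075 and −0.01.

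The larger differences at the later times were not shown to differ from the 4-week ones. The interaction of diet and time was called for 0 of 9 genes and for 0% of all genes by limma. At an unadjusted p under 0.05 it counted 3 of the 9, which were Ciita, H2-Eb1 and H2-Ab1, and 5.41% of all genes. The adjusted p by limma was 0.886 for all 3. Compared with 4 weeks, the diet difference of H2-Eb1 was 0.83 larger at 12 weeks on the log2 scale and that of Ciita 0.80 larger at 8 weeks.

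Within a diet, the arrays of 12 weeks were set against those of 4 weeks. On LFD the 3 chains were lower at 12 weeks on all 4 arrays than on any array of 4 weeks, by −0.63 ± 0.19 for H2-Ab1, −0.45 ± 0.19 for H2-Aa and −0.46 ± 0.19 for H2-Eb1. That holds for 4.1% of all genes, and none of the 3 was called (limma, adjusted p = 0.106, 0.255 and 0.244), although all 3 had an unadjusted p under 0.05, as 15% of all genes did. On HFD the same differences were 0.13 ± 0.21, 0.24 ± 0.20 and 0.365 ± 0.21, with overlapping arrays. Ciita on HFD was higher on all 4 arrays of 12 weeks than on the 3 of 4 weeks, by 0.38 ± 0.16 (limma, adjusted p = 0.371), as 6.68% of all genes were. At 8 against 4 weeks it was also higher on every HFD array, by 0.57 ± 0.16 (limma, adjusted p = 0.342), as 4.63% of all genes were. Of the 9 genes 0 were called in each of these comparisons by limma. The share of all genes called was 0% for 8 and 0.573% for 12 against 4 weeks on HFD, and 0.636% and 0.681% on LFD. The count at an unadjusted p under 0.05 was 2 of 9 for 8 against 4 weeks on HFD, 1 for 12 against 4 weeks on HFD and 1 for 8 against 4 weeks on LFD, beside 8.85%, 11.2% and 15.5% of all genes at that threshold.

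For every measured member except H2-Ob, the mean of each HFD group lay above the mean of each LFD group. For H2-Ab1 and H2-Eb1 the order ran from HFD at 8 weeks through HFD at 12 and 4 weeks and LFD at 4, 8 and 12 weeks to chow. Of 54 neighbouring pairs in these orders over the 9 genes, 0 were called (smallest adjusted p by limma 0.155). With 2 to 4 arrays a group, that does not show that neighbours are alike. The arrays of 3 pairs did not overlap. These were HFD over LFD at 4 weeks for H2-Ab1 and 12 over 4 weeks on HFD for Ciita, as for 4.68% and 6.68% of all genes. The other was 8 over 12 weeks on LFD for H2-Eb1, for which no such share was counted. H2-Ab1 had means of 12.00 ± 0.22 (SD, n = 4) on HFD at 8 weeks, 11.54 ± 0.13 (n = 4) on LFD at 4 weeks and 10.91 ± 0.25 (n = 4) on LFD at 12 weeks.

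Against chow, H2-Ab1 was higher on HFD at 4 weeks by 0.98 ± 0.25 (3 against 2 arrays; limma, adjusted p = 0.027; not called without chow array 1 or HFD array 1 or 3), 1 of 9 genes called beside 3.34% of all genes called higher. The 2 chow arrays were far apart: chow array 1 had 10.22 for H2-Ab1, 6.10 for Ciita and 7.93 for H2-DMb2, and chow array 2 had 11.50, 7.21 and 5.37. Array 1, the one with the highest epididymis mean, was the lowest of the series for H2-Ab1 and Ciita and the highest for H2-DMb2; the part of epididymis RNA in these values was not tested. Without the 3 arrays with epididymis transcripts 0 of 9 genes were called. LFD at 4 weeks against chow gave 0 of 9 by limma (5 at an unadjusted p under 0.05), beside 1.55% of all genes adjusted and 17.3% unadjusted. That count depended on which of the 2 chow arrays was kept.

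Hepatocyte transcripts varied widely between arrays. Between the diets 0 of 16 were called at 8 weeks by limma (2 at an unadjusted p under 0.05, beside 13.7% of all genes) and 1 at 12 weeks. This was Cyp2e1, a cytochrome P450, which was lower on HFD by 0.98 ± 0.28 (limma, adjusted p = 0.0492). That call was lost in each of the 8 fits that left out an array. The median difference of the 16 hepatocyte genes was 1.89 at 8 weeks and −1.50 at 12 weeks, and that of 6 liver macrophage genes, of which 0 were called by limma (1 and 2 at an unadjusted p under 0.05), 0.46 and −0.50. The part of liver transcripts in the class II values was not tested, and the same differences within the high and the low set follow. These sets are not matched for hepatocyte level. In the high set of 12 weeks the hepatocyte mean ran from 9.74 to 10.15 on HFD and from 10.49 to 11.17 on LFD. In that of 8 weeks it ran from 10.83 to 10.87 and from 10.32 to 10.61. On the low arrays it was 6.05 against 8.24 at 12 weeks, and 7.56 against 6.28 and 6.41 at 8 weeks. Within the arrays with high hepatocyte transcripts at 12 weeks (3 against 3), H2-Ab1 differed by 1.07 ± 0.23, H2-Eb1 by 0.92 ± 0.22, H2-Aa by 0.81 ± 0.23 and H2-DMa by 0.82 ± 0.17. These 4 were called there by limma, with adjusted p-values from 0.00895 to 0.0491, and Ciita, at 0.61 ± 0.18, was not (adjusted p = 0.0737). In the other arrays of 12 weeks (1 against 1) the same 5 genes differed by 0.52 to 1.08. At 8 weeks Ciita differed by 0.89 ± 0.20 in the high set (3 against 2) and by 0.965 ± 0.27 in the low set (1 against 2), neither called (limma, adjusted p = 0.123 and 0.126).

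**Figure D3:**
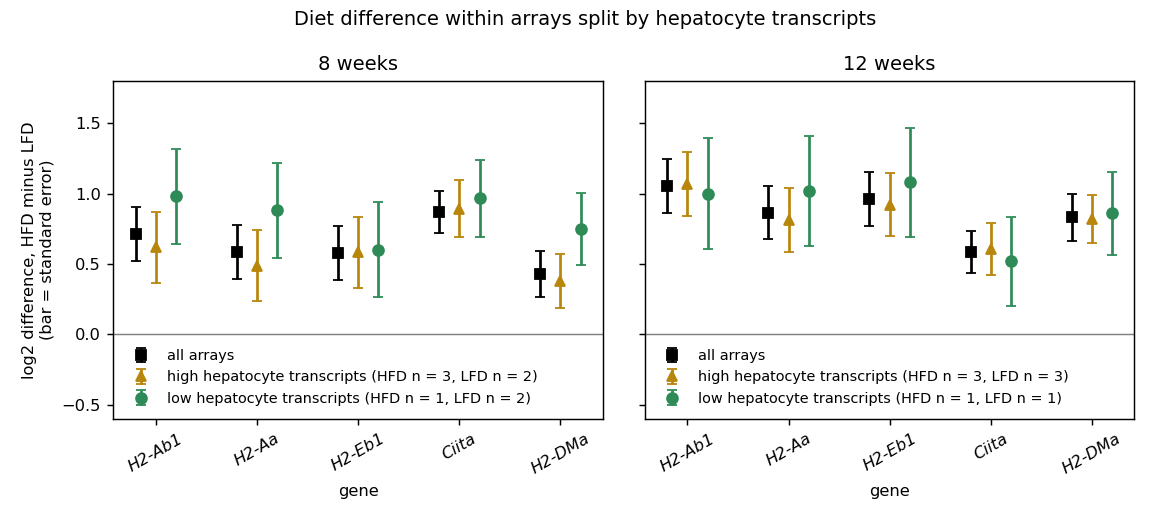
Log2 difference HFD minus LFD (y axis, bars are standard errors) of 5 class II genes (x axis) at 8 and 12 weeks, over all arrays and within the arrays with high or low hepatocyte transcripts. At 12 weeks the differences of H2-Ab1 are 1.05, 1.07 and 1.00 in that order.

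Among the factors that bind class II promoters or drive Ciita, 2 of 11 measured genes were called at 12 weeks, both higher. Spi1, the myeloid factor PU.1, rose by 1.19 ± 0.23 (limma, adjusted p = 0.00396) and Irf8, a factor of macrophages and dendritic cells, by 1.02 ± 0.20 (adjusted p = 0.00384). The genes of the DNA-binding complexes, Rfx5, Rfxap, Rfxank, Nfya, Nfyb, Nfyc and Creb1, were all among those not called. At 8 weeks 0 of 11 were called by limma (3 at an unadjusted p under 0.05), with Irf8 at 0.72 ± 0.20 (adjusted p = 0.0573) and Spi1 at 0.80 ± 0.23 (adjusted p = 0.0765). At 4 weeks 0 of 11 were called by limma (1 at an unadjusted p under 0.05), the smallest p-values being those of Nfyb at 0.295 ± 0.14 and Nfyc at −0.25 ± 0.12.

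In the interferon gamma axis, which induces Ciita, 0 of 11 measured genes were called at 12 weeks by limma (1 at an unadjusted p under 0.05) and 1 at 8 weeks. That gene was Cxcl10, an interferon-induced chemokine, which rose by 0.85 ± 0.20 (limma, adjusted p = 0.0216); the call was lost without HFD array 1 or 3 or LFD array 1, 3 or 4. At 12 weeks the smallest p-values were those of Jak1, 0.25 ± 0.12, and Ifngr2, 0.48 ± 0.24.

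Of 9 proteases and other factors of antigen processing, 4 were called at 12 weeks and 2 at 8 weeks, all higher. Ctss, cathepsin S, which digests the invariant chain, rose by 1.43 ± 0.28 at 8 weeks and 1.74 ± 0.28 at 12 weeks (limma, adjusted p = 0.00834 and 0.00107). Lgmn, asparagine endopeptidase, rose by 0.865 ± 0.18 and 1.10 ± 0.18. At 12 weeks Ifi30, the lysosomal thiol reductase GILT, rose by 1.15 ± 0.26 and Ctsz by 0.59 ± 0.16. The calls of Ctss at both times were kept in each of the 8 fits that left out an array, that of Lgmn at 8 weeks was lost without HFD array 1, and that of Ctsz without HFD array 1, 3 or 4 or LFD array 1, 2 or 3. At 4 weeks 0 of 9 were called by limma (also 0 at an unadjusted p under 0.05), with Lgmn at 0.41 ± 0.20 and Ctsz at 0.33 ± 0.17.

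Of 9 genes of class II turnover and co-stimulation, 2 were called at 12 weeks and 0 at 8 and 4 weeks by limma (3 and 0 at an unadjusted p under 0.05). Marchf1, a ubiquitin ligase that removes class II molecules from the surface, rose by 0.66 ± 0.13 at 12 weeks (limma, adjusted p = 0.00407), and Cd83, which opposes it, by 0.96 ± 0.19 (adjusted p = 0.00447). At 8 weeks Cd83 differed by 0.44 ± 0.19 and Cd80, a ligand of CD28, by 0.59 ± 0.27. Of 11 genes of class I presentation 0 were called at 4, 8 and 12 weeks by limma. At an unadjusted p under 0.05 the counts were 1, 4 and 2, beside 9.33%, 13.7% and 16.1% of all genes. Tapbp, tapasin, differed by 0.42 ± 0.12 at 12 weeks (limma, adjusted p = 0.0546). Of 4 other genes of the class II region, 0 were called at these times, also at an unadjusted p under 0.05, with Brd2 at −0.15 ± 0.11 at 12 weeks.

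**Figure D4:**
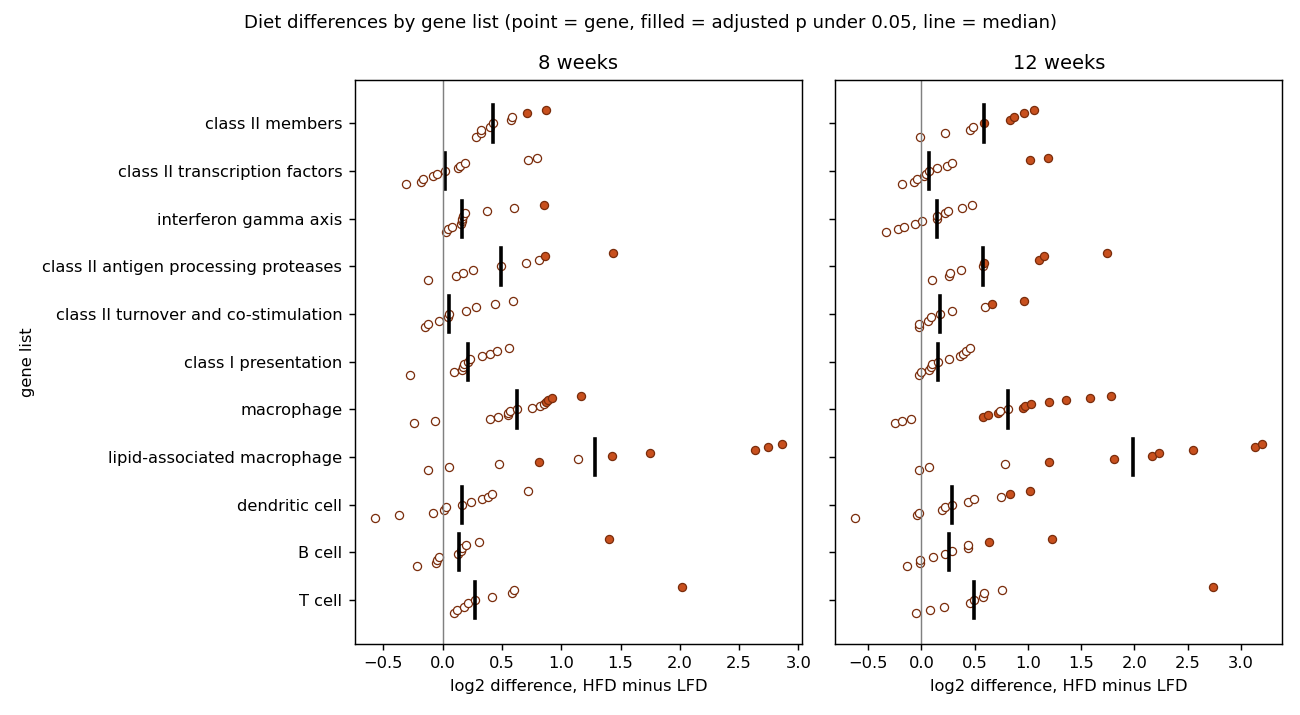
Log2 difference HFD minus LFD (x axis) of each measured gene of the class II list and of 10 other lists (y axis) at 8 and 12 weeks; filled points have an adjusted p under 0.05 and the line is the list's median. The class II median is 0.43 at 8 weeks and 0.585 at 12 weeks, and that of the lipid-associated macrophage list 1.285 and 1.99.

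Of the markers of cells that carry class II at rest, 10 of 15 macrophage, 2 of 11 dendritic cell and 2 of 10 B cell genes were called higher at 12 weeks. The 12-week differences were positive for 12, 8 and 7 of them. For the mean of the 3 times, 12 macrophage genes were called higher and 1 lower. In that comparison 1 dendritic cell gene was called higher and 1 lower, and 2 B cell genes higher. The part of these cells in the class II results was not tested. Of 15 macrophage genes, 4 were called higher at 8 weeks and 10 at 12 weeks. Of the 4 calls, 0 were kept without HFD array 1 or LFD array 1, 2 or 4, and 1 without HFD array 4 or LFD array 3. Of the 10, 5 were kept without HFD array 1 and 6 without HFD array 3 or LFD array 1 or 2. Centring on array medians kept 0 of the 4 and 8 of the 10. Their mean level ran from 9.48 to 9.82 on HFD and from 8.63 to 9.06 on LFD at 12 weeks. At 8 weeks it ran from 9.39 to 9.94 and from 8.86 to 8.99, and at 4 weeks from 9.04 to 9.36 and from 8.76 to 9.15. Itgam, the CD11b integrin, rose by 0.92 ± 0.22 and 1.36 ± 0.22 at 8 and 12 weeks, and Cd68, a lysosomal glycoprotein, by 1.16 ± 0.30 and 1.78 ± 0.30. Adgre1, a surface receptor of mature macrophages, rose by 0.87 ± 0.22 and 1.195 ± 0.22. Of these 3, Itgam alone kept its 8-week call without HFD array 4 or LFD array 3.

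Of 10 genes of lipid-associated macrophages, which gather around dying fat cells, 6 were called higher at 8 weeks and 7 at 12 weeks. Of the 6 calls, 3 were kept without HFD array 1 or without any 1 of the LFD arrays, and all 7 of 12 weeks were kept in each fit that left out an array. At 8 weeks the mean level of the list was 10.38 on HFD array 1, 8.74 to 9.11 on the other HFD arrays and 7.72 to 8.03 on LFD. Their mean level at 12 weeks ran from 9.46 to 10.54 on HFD and from 7.87 to 8.62 on LFD. Itgax, CD11c, a marker shared with dendritic cells, rose by 1.75 ± 0.33 and 2.17 ± 0.33, and Trem2, a lipid receptor, by 2.23 ± 0.37 at 12 weeks (limma, adjusted p = 0.0013).

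Of 11 dendritic cell genes, 0 were called at 8 weeks by limma (2 at an unadjusted p under 0.05) and 2 at 12 weeks. These were Irf8, also in the list of factors, and Flt3, the receptor that sustains dendritic cells, which rose by 0.83 ± 0.19 (limma, adjusted p = 0.0112; lost without HFD array 3). The list's mean at 12 weeks ran from 6.10 to 6.35 on HFD and from 5.84 to 6.06 on LFD. Of 10 B cell genes, 2 were called higher at 12 weeks: Ighm, the mu heavy chain, by 1.22 ± 0.31 and Cd22, a B cell lectin, by 0.63 ± 0.16. Ighm was also called higher at 4 weeks, by 1.72 ± 0.34, and at 8 weeks, by 1.4 ± 0.31. It belongs to a multigene locus, and the mean of its clusters in place of the brightest one gave 0.03, 0.13 and 0.72 at 4, 8 and 12 weeks and no call. The Ighm calls were also lost in 5 of 7, 4 of 8 and 6 of 8 fits that left out an array, and that of Cd22 in 4 of 8. The B cell mean at 12 weeks ran from 5.645 to 6.01 on HFD and from 5.29 to 5.68 on LFD. Of 9 T cell genes, Il7r, the interleukin 7 receptor, was the 1 called at 8 and at 12 weeks, by 2.02 ± 0.40 and 2.74 ± 0.40.

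Genes most like the class II chains were sought by Pearson's r over the 25 arrays with the mean of H2-Aa, H2-Ab1 and H2-Eb1, and the values are descriptions, since the genes were chosen by them. Of 19384 named genes the highest was Pld4, an endolysosomal nuclease of myeloid cells, with r = 0.96 (Spearman's rho 0.97). Laptm5, a lysosomal protein of leukocytes, followed at 0.93, then Unc93b1, the chaperone of endosomal Toll-like receptors, at 0.93, Lsp1 at 0.92, and Cyth4, Ptprc (CD45), Clec4a3 and Tifab at 0.91. The median r of the genes compared was −0.01. Without the 2 arrays farthest from the median of the chain mean, chow array 1 and LFD array 1 of 12 weeks, these 8 genes had r from 0.83 to 0.94. Over deviations from the group means, Pld4 (0.90) and Unc93b1 (0.89) were again among the 8 highest, behind Reep5 at 0.92; without the 2 chow arrays, Pld4 and Unc93b1 had 0.77 and Reep5 0.84. All 25 arrays share the diet groups and the cell mixture of the tissue, which such an r cannot separate.

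The other members followed the chains to different degrees. Over the 25 arrays Ciita had r = 0.89 with their mean (rho 0.91) and H2-DMa 0.77 (rho 0.82). H2-DMb1 and H2-Oa had r = 0.43 and H2-Ob 0.35. H2-DMb2 had r = −0.23, and 0.48 without chow array 1 and LFD array 1 of 12 weeks. Over deviations from the group means Ciita had r = 0.84 (rho 0.65) and H2-DMa 0.54 (rho 0.74). Without the 2 chow arrays these were r = 0.54 and 0.80. H2-Oa, H2-Ob, H2-DMb1 and H2-DMb2 had r = 0.29, 0.38, 0.04 and −0.58 over the deviations. Without the 2 chow arrays they had 0.42, −0.16, 0.17 and 0.11.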

How the data were processed

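The deposited table holds 1 log2 value per transcript cluster and array (Affymetrix Mouse Gene 2.0 ST), which the authors made in Transcriptome Analysis Console 4.0.2, per the labels' design text; the labels name no background correction, summarisation or normalization. The scale was judged from the values, 1.73 to 14.13. Of 34472 clusters, 23521 had 1 gene symbol; the brightest cluster stood for a gene (22180 genes). The design meant to include Cd74 in the chain mean, which was made without it. Arrays are labelled as biological replicates, 2 to 4 a group, which limits precision.

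Limma 3.58.1 in R 4.3.3 fitted 7 group means to all 25 arrays, with Benjamini-Hochberg adjustment over all genes and a threshold of 0.05; the fit was tested on simulated data. Named were all members, up to 4 called genes of each other list with the smallest p at each time (otherwise up to 2 as values), and the 8 genes most like the chains. The DNA-binding factor genes were named after their values were seen. Members and lists were chosen with earlier results of these data known. Motifs were counted in RefSeq promoters. Alternatives covered normalization, dim genes, the choice of cluster, moderation and weights, the replicate number, the samples fitted and hepatocyte and epididymis transcripts.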

Additional observations from a re-analysis of the deposited data

Results flagged for a closer look

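In 3 of the 45 sets of 4 arrays of 1 gene and group, 1 array lay far from the others by Dixon's criterion, which chance meets in about 1 in 20 sets. H2-Eb1 on HFD at 8 weeks was 10.01 on array 3, below the next value of 10.17. H2-Oa on LFD at 4 weeks was 5.24 on array 1, above the next value of 4.98, and on LFD at 12 weeks it was 5.16 on array 2, above the next value of 5.0.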

How the results depend on the processing

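The count of called class II genes at 8 weeks (2) was 4 with only the compared groups in the fit and 4 without the 3 arrays with epididymis transcripts, 5 with array weights and 5 with hepatocyte and epididymis means as covariates, and 1 after quantile normalization, after centring on array medians and with the mean of a gene's clusters. Within the arrays with high or with low hepatocyte transcripts it was 0. The count at 12 weeks (5) was 0 within the low arrays, where 1 array stands against 1. For the mean of the 3 times (6) it was 1 with a fold limit of 1.5, and 1 by the methods' 2-way analysis of variance with that limit, unadjusted or adjusted. HFD at 4 weeks against chow (1) gave 0 with only the compared groups, with array weights and without the 3 epididymis arrays; array weights gave 1 in place of 0 for LFD at 8 and at 12 against 4 weeks. Leaving out 1 array gave 1 at 8 weeks, 4 to 5 at 12 weeks, 5 to 6 for the mean, and 0 in the other comparisons without chow. Against chow the counts moved too, but leaving out a chow array leaves 1 there. The cause of these changes was not tested. The share of all genes called was not set beside these counts, which therefore describe the members alone. The 5 genes called at 12 weeks were higher on HFD in all 16 other settings and in all 8 fits that left out an array. Among uncalled differences, that of H2-DMb2 at 4 weeks changed sign in 2 settings and that of H2-Ob at 12 weeks in 4. A filter on genes with a mean under 5.13 keeps 6 of the 9 members.

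Deviations of same-numbered HFD and LFD arrays of the same time gave mixed correlations, from −0.61 to 0.599 over 11 pairs, 5 of them over 0.1. They were positive at 4 and 12 weeks, from 0.026 to 0.599, and of both signs at 8 weeks. The numbers were not taken as a pairing. With the replicate number as a block the counts were 0 at 4 weeks, 2 at 8 weeks, 5 at 12 weeks, 6 for the mean, 1 for HFD at 4 weeks against chow and 0 in the other comparisons, as without it. Among the genes called in the other lists at single times, the block lost the calls of Cd68, Adgre1 and Lgals3 at 8 weeks and of Fcer1g at 12 weeks.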

Other observations

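For the mean of the 3 times, 2 of 11 genes of class I presentation were called higher on HFD, and both are named after their values were seen. Tapbp, which loads peptide onto class I molecules, differed by 0.33 ± 0.07 (limma, adjusted p = 0.00396) and Psmb10, an immunoproteasome subunit, by 0.44 ± 0.13 (adjusted p = 0.0363). In the same comparison 6 of 9 genes of class II antigen processing were called higher. They include the cathepsins Ctsh, at 0.49 ± 0.12, and Ctsl, at 0.27 ± 0.08, which were called at no single time. Of the 4 other genes of the class II region 0 were called by limma (1 at an unadjusted p under 0.05, beside 21.9% of all genes). Brd2 differed by −0.15 ± 0.07, H2-Ea by 0.02 ± 0.08 and H2-Eb2 by −0.02 ± 0.10.

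In the adipocyte list, Slc2a4, the insulin-responsive glucose transporter GLUT4, was called lower on HFD at 8 weeks, by −1.08 ± 0.23, and at 12 weeks, by −0.9975 ± 0.23 (limma, adjusted p = 0.0139 and 0.0122), the 1 of 11 genes called at either time. Both calls were lost without HFD array 1 of that time.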
